A study of Homo sapiens with 79 samples.

Results

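The RNA recovered with the acetyltransferase PCAF was compared with input RNA in K562 cells, an established human line that was derived from a chronic myelogenous leukemia and grows in suspension. In formaldehyde RNA immunoprecipitation (fRIP), living cells are lightly cross-linked and broken by sonication. An antibody to a chosen protein then pulls down that protein with its cross-linked RNA, which is sequenced beside RNA of lysate that saw no antibody (input). All groups used here were K562 cells, for which the labels give no genetic change or drug, and all were cross-linked with 0.1% formaldehyde for 10 minutes. The antibody field of the labels gives a Cell Signaling antibody for PCAF, while the extraction text that the samples share names an antibody to HuR. The comparison took 6 of the 79 libraries of the series, namely PCAF fRIP 1 to 3 and input set 2 replicates 1 to 3. Input RNA was sequenced in 3 sets of 3 libraries, and set 2 was chosen because the authors' mean input level in their own PCAF comparison lay closest to it, with a median absolute log2 difference over 16395 genes of 0.017, against 0.282 for set 1 and 0.159 for set 3. The 9 input libraries together served as a check, and CHD1, NUP98, RBBP5 and WDR5 fRIP, whose nearest input is also set 2, gave 12 libraries of other proteins for comparison.

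PCAF, encoded by KAT2B, transfers acetyl groups to lysines of histone H3 and of other proteins, and its bromodomain reads acetylated lysine. It is the paralog of GCN5 (KAT2A), and either enzyme forms the acetyltransferase module of the coactivators SAGA and ATAC, which act at promoters and enhancers. It is not known as a classical RNA binding protein. RNA in a fRIP may therefore be held by PCAF itself or by other members of a cross-linked complex, and fRIP does not separate these cases.

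The low values of genes rise in steps that are worth 1 fragment, which put the depth, in units of 1e6 fragments, at about 41.5, 37.3 and 26.1 for PCAF fRIP 1 to 3 and at 27.1 to 30.4 for input set 2. Across 15568 genes, log2 levels correlated at 0.962 to 0.986 between PCAF libraries, at 0.954 to 0.986 between libraries of input set 2 and at 0.912 to 0.947 between the 2 kinds. The 10 most abundant genes took 2.64% to 3.17% of the summed FPKM (fragments per kilobase of transcript, scaled to library size) in PCAF fRIP and 10.4% to 12.6% in input set 2. Genes that mark K562 cells were present, with the fetal globin mRNA HBG2 at 859 to 1415 FPKM in PCAF fRIP and 818 to 1084 FPKM in input set 2. Among genes that mark other cell types, INS and KRT5 were listed at 0 in all 6 libraries, and CD3E, ALB, COL1A1, GFAP and MYH6 stayed under 1 FPKM in at least 4 of them.

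On the deposited scale, PCAF fRIP differed from input far more often by depletion than by enrichment. Levels were compared as log2(FPKM + 1) for the 15568 genes that reached 1 FPKM in 3 or more of the 6 libraries. Enriched and depleted stand for an adjusted p under 0.05 together with a log2 fold change beyond 1 in size. By this rule 31 genes (0.199%) were enriched and 1657 (10.6%) were depleted. At the adjusted p alone, 4092 genes (26.3%) were higher and 5466 (35.1%) lower, so most differences were small. These counts moved with the setting, to 1099 higher and 3111 lower without the replicate block, 4920 and 4773 with libraries centred on the genes tested, 5791 and 4121 with FPKM scaled to 1 total and 9849 and 2193 with the second centring described next. Every PCAF library lay above every input library for 2467 genes (15.8%) and below every input library for 4277 genes (27.5%). No library made with a control antibody was used here. Since FPKM are shares of a library, a lower value cannot tell less recovery of that RNA from more recovery of all others.

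This balance depended on the scale. The median log2 fold change over genes tested was -0.06, and centring each library on the median of its tested genes moved it by 0.07, to 53 enriched (0.34%) and 1482 depleted genes (9.52%). Centring on the median of the 25442 genes with 1 FPKM in at least 2 of all 79 libraries, a setting added after the data were seen, raised every fold change by 0.52 and gave 1523 enriched (9.78%) and 619 depleted genes (3.98%). The enriched share of all calls was 1.84% on the deposited scale, 3.45% with the first centring and 71.1% with the second. The study describes the replicates of a fRIP as made on different dates from different lysates, and nothing in the labels says this of the input libraries. Fold changes are given on the deposited scale, and any fold change or median of PCAF fRIP against input set 2 over genes that lies less than 0.52 below 0 turns positive under the second centring.

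**Figure D1:**
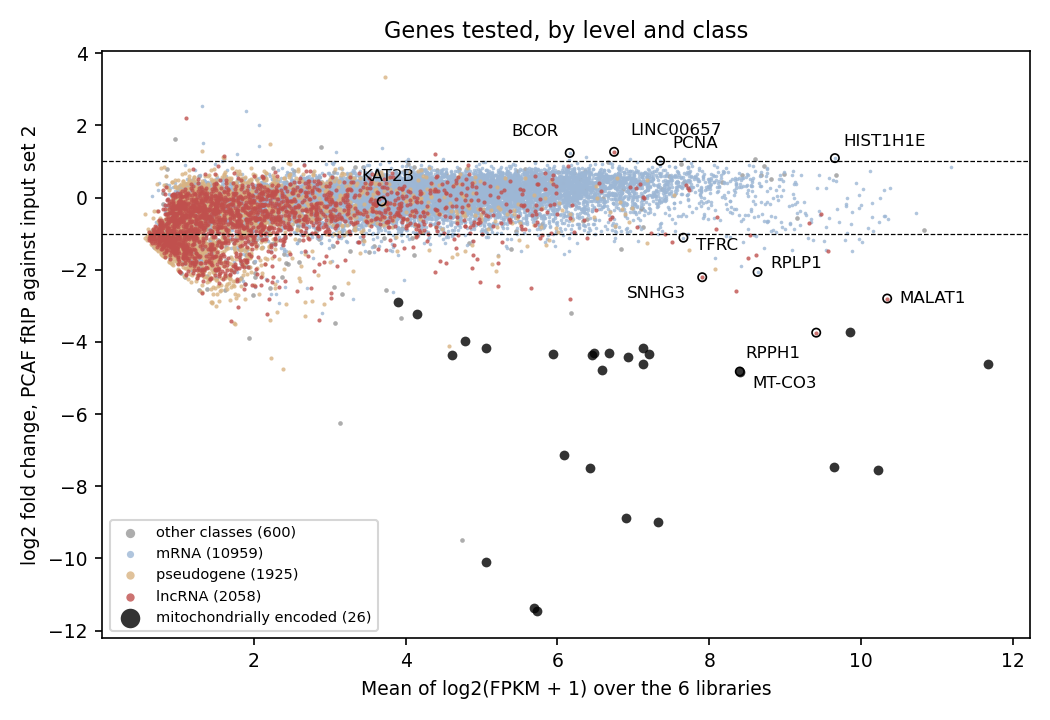
Log2 fold change of PCAF fRIP against input set 2 (vertical axis, log2 scale) for each of the 15568 genes tested, by the mean of log2(FPKM + 1) over the 6 libraries (horizontal axis), coloured by class. Dashed lines mark a log2 fold change of 1 in either direction, and the mitochondrially encoded RNAs (black) reach down to -11.46, while most of the 31 enriched genes lie close to the upper line.

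Depletion was read mostly from RNAs of low level in fRIP. Of the 1657 depleted genes, 1055 (63.7%) had no PCAF library at 1 FPKM and so entered the test only through input, 48 were listed at 0 in all PCAF libraries, and 303 had a mean of at least 5 FPKM over the 6 libraries. The 31 enriched genes were few and partly uncertain. Among the 28 with a locus in the annotation, 11 overlapped another tested gene on the same strand, and 3 of these carry the joined names of readthrough transcripts, for which the authors' counting may split fragments between the joined transcript and its parts. ANKHD1-EIF4EBP3, at 7.64, 1.21 and 10.5 FPKM against 0.016, 0.066 and 0.0059 FPKM in input, is one of them. Of the 16 enriched genes with a mean of at least 5 FPKM, 2 overlapped another gene (RP11-286N22.8 and RP11-438J1.1).

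The mRNA of PCAF itself did not pass the test. KAT2B (chr3:20081938-20195896, hg19, plus strand) stood at 12.8, 12.003 and 9.57 FPKM in PCAF fRIP and at 15.96, 12.9 and 9.09 FPKM in input set 2, and the groups overlapped. Its log2 fold change was -0.11 ± 0.090 (SE, adjusted p = 0.332), and it turned to 0.41 under the second centring. KAT2B mRNA does not report on how well the antibody recovered the protein. The paralog KAT2A, chosen after its values were seen, was at 16.2, 19.98 and 32.4 FPKM against 17.4, 20.6 and 25.4 FPKM.

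Messages for the partners of PCAF had 0 calls on the deposited scale, where 0.199% of all genes were enriched, and this depended on the scale. None of the 23 tested subunits of SAGA, the coactivator that also holds a deubiquitinase, was called, with a median log2 fold change of 0.16 against -0.06 over all genes. At the adjusted p alone, 9 were higher and 4 lower, where 26.3% of all genes were higher and 35.1% lower. Under the second centring TADA2B, TADA1, TRRAP and USP22 were enriched (log2 fold changes 1.27, 1.23, 1.11 and 1.04), which is 4 of 23 where 9.78% of all genes were enriched. SF3B3, the subunit with the highest input level, reached 148, 214 and 262 FPKM against 106, 151 and 199 FPKM, a log2 fold change of 0.46 ± 0.067 (adjusted p = 0.00148). None of the 13 tested ATAC subunits was called either (median 0.07). DR1, which represses transcription by binding the TATA-binding protein, was at 56.4, 58.2 and 76.6 FPKM against 58.0, 63.1 and 66.6 FPKM and did not separate the groups. Among 26 other acetyltransferases and coactivators (median 0.13) and 18 histone deacetylases (median 0.04), 0 were called in each. Under the second centring 1 ATAC subunit, 7 of these 26 and 2 of these 18 were enriched, where 9.78% of all genes were. HAT1, which acetylates newly made histone H4, came closest to a call among the acetyltransferases at 208, 242 and 164 FPKM against 118, 119 and 101 FPKM (log2 fold change 0.84 ± 0.082, adjusted p = 0.000352), and HDAC1 was at 153, 187 and 152 FPKM against 107, 120 and 126 FPKM. For 19 tested mRNAs of proteins that PCAF has been reported to acetylate or bind, the median was 0.43, with 0 called. At the adjusted p alone 13 were higher and 3 lower, where 26.3% and 35.1% of all genes were. Under the second centring 8 were enriched, where 9.78% of all genes were. MYC, an acetylated transcription factor, was at 106, 126 and 142 FPKM against 61.5, 73.6 and 81.5 FPKM. MYC was picked after its values were seen, and LDHB, the member with the highest input level, had a log2 fold change of 0.20 ± 0.11 (adjusted p = 0.172).

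RNAs encoded by the mitochondrial genome had the lowest median of the 33 gene lists. The organelle transcribes its own ribosomal RNAs, transfer RNAs and mRNAs of the respiratory chain and keeps them inside its membranes. Of 26 tested, 24 were depleted and 0 enriched, with a median log2 fold change of -4.52, and all 24 had every PCAF library below every input library, where 10.6% of all genes were depleted and 27.5% had every PCAF library below. The 13 mitochondrial mRNAs summed to 316, 254 and 292 FPKM in PCAF fRIP and to 7055, 6106 and 6976 FPKM in input set 2. Input sets 1 and 3 gave 5395 to 6374 FPKM, so that all 9 inputs lay far above PCAF fRIP. MT-CO3 (chrM:9207-9990), a subunit of cytochrome oxidase, was at 69.8, 53.4 and 65.8 FPKM against 1970, 1646 and 1792 FPKM (log2 fold change -4.82 ± 0.084, adjusted p = 6.02e-07). MT-ND3 (chrM:10059-10404), a subunit of complex I, was at 18.4, 14.5 and 19.8 FPKM against 512, 447 and 554 FPKM (-4.77 ± 0.063). All 13 mRNAs fell, with ratios of mean FPKM between 18.4-fold and 28.7-fold lower in PCAF fRIP. Their log2 fold changes lay between -4.82 and -3.98, a narrow range.

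Mitochondrial transfer RNAs were measured less firmly, since they are short and many values were exact zeros. Of the 13 tested transfer and ribosomal RNAs, 11 were depleted, and 3 of them, MT-TR, MT-TT and MT-TL1, were listed at 0 in all PCAF libraries. MT-TR (chrM:10405-10469), the arginine tRNA, was listed at 0 in PCAF fRIP 1 to 3 and stood at 1981, 4269 and 2654 FPKM in input set 2. MT-TT was at 2812, 1554 and 4305 FPKM in input and MT-TL1 at 1601, 600.0 and 1383 FPKM. MT-TS2 was listed at 0 in PCAF fRIP 1 and 3 and at 360.2 FPKM in PCAF fRIP 2, against 2862, 3312 and 4928 FPKM. MT-TL2, MT-TY, MT-TI, MT-TG and MT-TH also held at least 1 PCAF library at 0, and their means in PCAF fRIP of 55.5 to 563 FPKM stood against means of 853 to 16321 FPKM in input. MT-TP, the proline tRNA, had a value in every library, at 385, 868 and 839 FPKM against 12643, 15100 and 21950 FPKM (log2 fold change -4.62 ± 0.25).

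The depth of this depletion set PCAF apart from similar fRIPs. Against the mean of CHD1, NUP98, RBBP5 and WDR5 fRIP, in 1 fit with a replicate block over 18358 genes, 79 genes (0.43%) were higher and 759 (4.13%) lower in PCAF fRIP. With libraries centred the counts were 387 higher and 336 lower, so the balance between directions depended on the scale. All 13 mitochondrial mRNAs were among the lower genes (log2 difference -2.80 to -1.77), as were 17 of the 26 mitochondrially encoded RNAs. The 13 mRNAs summed to 445 to 743 FPKM in WDR5 fRIP, 1308 to 2204 in NUP98 fRIP, 1715 to 2161 in CHD1 fRIP and 2794 to 2873 in RBBP5 fRIP, all above the 254 to 316 FPKM of PCAF fRIP. Against input set 2, which all 5 proteins share, the medians over the 26 RNAs were -4.52 for PCAF, -3.67 for WDR5, -2.003 for NUP98, -1.95 for CHD1 and -1.36 for RBBP5.

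Structured RNAs made by RNA polymerase III, and the small RNAs of splicing and of ribosomal RNA modification, were low in PCAF fRIP. RPPH1 (chr14:20811207-20811844, minus strand), the RNA of RNase P, was at 232, 146 and 186 FPKM against 2721, 2472 and 2285 FPKM (log2 fold change -3.74 ± 0.14, adjusted p = 2.93e-05). RN7SL1, the RNA of the signal recognition particle, was at 28.6, 21.9 and 19.1 FPKM against 255, 199 and 208 FPKM (-3.20 ± 0.074). Of 4 tested RNAs of this kind, 3 were depleted, where 10.6% of all genes were. The third was the vault-related VTRNA2-1, which was listed at 0 in PCAF fRIP 1 and 3 and at 14.7 FPKM in PCAF fRIP 2. Of 4 spliceosomal RNAs made by polymerase II, 3 were depleted, all of the minor spliceosome, which removes a rare class of introns. RNU12 was at 1.29, 1.11 and 0.686 FPKM against 8.06, 6.05 and 4.28 FPKM. RNU11 was at 19.6, 11.3 and 77.2 FPKM against 196, 180 and 195 FPKM, and RNU4ATAC at 12.7, 7.34 and 0 FPKM against 52.0, 53.6 and 38.8 FPKM. Among 11 tested small nucleolar and Cajal body RNAs, 6 were depleted (median -1.41), against the same 10.6% of all genes, including SCARNA9 at 18.4, 12.4 and 18.1 FPKM against 64.2, 51.4 and 48.6 FPKM, and SNORD3D at 0.505, 0.503 and 0.322 FPKM against 5.04, 4.02 and 2.91 FPKM. TERC, the RNA template of telomerase, was singled out after its values were seen, at 16.05, 13.3 and 15.5 FPKM against 90.2, 90.2 and 77.3 FPKM (-2.45 ± 0.088). TERC was also lower than in the other fRIPs near input set 2 (log2 difference -2.47). Depletion of these kinds was partly shared. Against input set 2 the polymerase III medians were -3.34 for PCAF, -2.84 for WDR5, -2.81 for NUP98, -1.54 for CHD1 and -1.19 for RBBP5. In that order the small nucleolar and Cajal body medians were -1.41, -1.42, -1.24, 0.70 and -0.13. The spliceosomal medians were -2.30, 0.33, -2.48, -0.05 and 0.20. Against the mean of the other fRIPs, 1 polymerase III, 1 spliceosomal and 6 nucleolar or Cajal body RNAs were lower. Most RNAs of these kinds are short or lack poly(A) tails, and their FPKM are less precise than those of mRNAs.

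Long noncoding RNAs as a class were depleted against mRNAs at every input level. Of 2058 tested lncRNAs, 553 (26.9%) were depleted and 4 enriched, and the median log2 ratio was -0.55 ± 0.084 (SD, n = 3 library pairs). Of 1925 pseudogenes, 687 (35.7%) were depleted and 4 enriched (median -0.64 ± 0.053), but with a mean of at least 5 FPKM 52 of 392 (13.3%) were depleted, with a median of -0.31 and one of 0.06 against the other fRIPs near input set 2. Of 10972 mRNAs, 269 (2.45%) were depleted and 20 enriched (median 0.06 ± 0.023). LncRNAs are less abundant than mRNAs, so genes were binned by their mean level in input sets 1 and 3, which the fold change did not use. The median of lncRNAs then ran from -0.65 to -0.42 over 6 bins from 1 FPKM to above 50 FPKM, and that of mRNAs from -0.10 to 0.17. In the highest bin, 81 lncRNAs had a median of -0.64 ± 0.14 and 1994 mRNAs one of 0.17 ± 0.031 (SD, n = 3). The pairs of the lncRNAs lay below those of the mRNAs in every bin. With a mean of at least 5 FPKM, 72 of 572 lncRNAs (12.6%) and 142 of 8888 mRNAs (1.60%) were depleted. Under the second centring the lncRNA median moved close to 0, and above it in the 3 bins from 1 to 2 and from 10 to 50 FPKM, while mRNAs moved above it, and the gap between the classes stayed the same by construction. Against the other fRIPs near input set 2, 296 lncRNAs were lower and 3 higher, where 4.13% of all genes were lower and 0.43% higher. The balance over all genes turned with centring as given above, and lncRNAs were not counted under that setting.

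**Figure D2:**
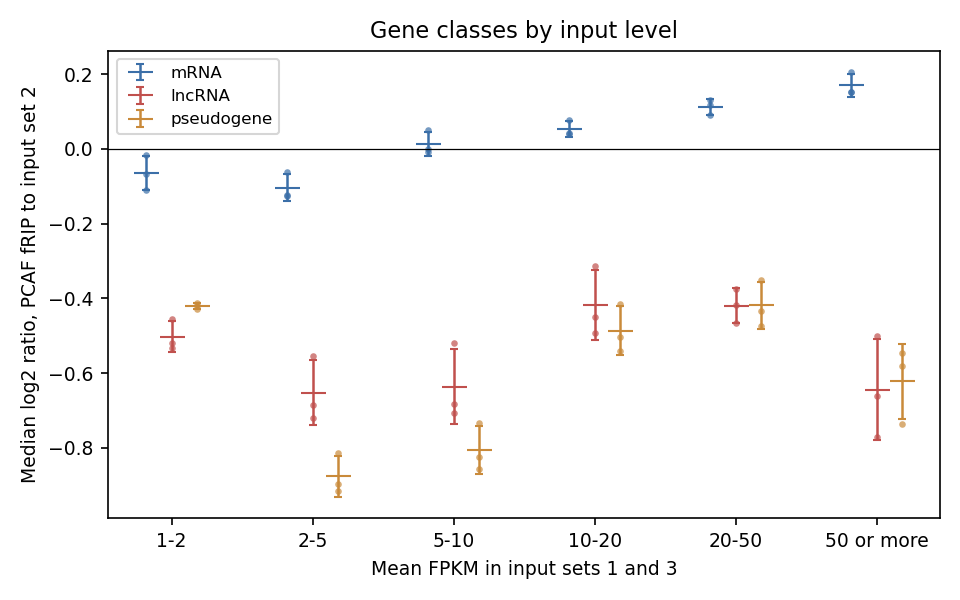
Median log2 ratio of PCAF fRIP to input set 2 (vertical axis) for mRNAs, lncRNAs and pseudogenes in bins of the mean FPKM in input sets 1 and 3 (horizontal axis). Points are the 3 library pairs and bars their mean and SD, and mRNAs lie above both other classes in all 6 bins.

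Of 15 tested members of a list of nuclear lncRNAs, 7 were depleted and 1 enriched (median -0.90), where 26.9% of all lncRNAs were depleted. The enriched member was LINC00657, which is described below as cytoplasmic. MALAT1 (chr11:65265111-65275544), a component of nuclear speckles, was at 449, 386 and 687 FPKM against 3717, 3355 and 3230 FPKM (log2 fold change -2.80 ± 0.20, adjusted p = 0.000168). NEAT1, the scaffold of paraspeckles, was at 20.1, 19.4 and 17.4 FPKM against 75.5, 84.7 and 50.8 FPKM (-1.81 ± 0.11). MIR17HG, the host transcript of the miR-17-92 cluster, was at 8.75, 9.65 and 25.8 FPKM against 52.8, 70.9 and 91.5 FPKM (-2.34 ± 0.17). All 3 were also lower than in the other fRIPs near input set 2, by -2.32, -1.59 and -2.58 on the log2 scale. MALAT1 ranged from 642 to 15301 FPKM in those 12 libraries, and only PCAF fRIP 3 reached into that range.

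Host genes of small nucleolar RNAs, whose spliced exons are short-lived and whose introns carry the snoRNAs, were lower as a list. Of 17 tested, 8 were depleted and 16 were lower at the adjusted p alone (median -0.99, range -2.21 to -0.34), where 10.6% of all genes were depleted and 35.1% lower. SNHG3 was at 94.1, 98.4 and 146 FPKM against 432, 535 and 590 FPKM (log2 fold change -2.21 ± 0.098, adjusted p = 4.99e-05). SNHG5 was at 222, 198 and 191 FPKM against 737, 665 and 565 FPKM, and SNHG17 at 13.03, 13.2 and 23.8 FPKM against 39.0, 46.2 and 69.3 FPKM. The list had a median of -0.88 against the other fRIPs near input set 2, with 5 members lower where 4.13% of all genes were. Against input set 2 the 4 other proteins had medians between -0.27 and 0.09.

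Of 213 tested lncRNAs with antisense names, 34 were depleted and 0 enriched (median -0.40), and of 66 with LINC names 12 were depleted and 1 enriched (median -0.39), where 26.9% of all lncRNAs and 10.6% of all genes were depleted. Both medians turned positive under the second centring, at 0.12 and 0.14. The files do not state whether counting used the strand, so reads of an antisense gene and of its partner may not be separate. GRM7-AS3 was at 0.967, 0.780 and 3.09 FPKM against 11.9, 15.3 and 13.7 FPKM, ST7-AS2 at 0.516, 0.457 and 0.631 FPKM against 6.57, 6.74 and 6.75 FPKM, and ATP1B3-AS1 at 0.334, 0.247 and 0.179 FPKM against 3.86, 4.57 and 6.55 FPKM. Among LINC genes, LINC00861, LINC00273 and LINC00645 had the largest depletions (log2 fold changes -2.65, -2.49 and -1.90). LINC00273 rested on the input set, with 0.056 against input set 1 alone. After the values were seen, lncRNAs with the suffix IT, which lie in introns of other genes, were counted. Of 35, 28 were depleted with 0 enriched (median -1.34, range -3.39 to -0.58). The second centring raises these fold changes by 0.52, so fewer would pass the threshold, and calls under it were not counted. Of the 35, 9 were lower than in the other fRIPs near input set 2. ANKRD10-IT1 (chr13:111546986-111551519, minus strand) was at 1.53, 1.57 and 0.704 FPKM against 18.2, 26.0 and 23.8 FPKM (log2 fold change -3.39 ± 0.17). Other lncRNAs among the most depleted were RP11-230C9.3, listed at 0 in all PCAF libraries, RP11-769O8.2 at 0.554, 0.263 and 0.635 FPKM against 13.7, 13.4 and 11.6 FPKM, and a lncRNA at chr17:68047418-68064236 at 1.25, 0.482 and 0.562 FPKM against 16.2, 14.3 and 5.92 FPKM. A pseudogene at chr1:21400132-21400246 was listed at 0 in all PCAF libraries and stood at 35.5, 21.3 and 23.2 FPKM in input. The pseudogene RP11-288C17.3, at 1.62, 2.20 and 0.882 FPKM against 18.1, 16.8 and 17.4 FPKM, was below all 12 libraries of the other proteins (5.68 to 86.6 FPKM).

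An abundant cytoplasmic lncRNA went the other way. LINC00657 (chr20:34633540-34638940, minus strand), also known as NORAD, binds the PUMILIO proteins through many short sites. It was at 168, 137 and 197 FPKM in PCAF fRIP against 68.7, 62.3 and 74.2 FPKM in input (log2 fold change 1.27 ± 0.073, adjusted p = 9.61e-05), and the groups were far apart. Its enrichment was not particular to PCAF, as the 12 libraries of the other proteins ran from 43.8 to 693 FPKM and the difference from their mean was 0.29. HCG11, the other enriched lncRNA named by the rule, was at 35.6, 30.1 and 27.1 FPKM against 14.7, 13.7 and 10.0 FPKM (1.22 ± 0.075). The reference transcript of LINC00657 (GENCODE, hg19, 5401 bases) holds 15 matches to the PUMILIO recognition letters TGTANATA on the transcript strand, some of which lie 9 bases apart. Only 3 of 14968 genes tested (0.02%) have a reference transcript with as many matches, or 0.096% of the 3127 whose transcript has 4000 bases or more, and 20.7% have at least 1. The search was added after the values were seen. Examples are given with the recognition letters in capitals, 5′ to 3′, from the sites at positions 1198, 1299 and 3030 of the transcript, because the repeated site is what this RNA is known for.
LINC00657 site at 1198: cactactgTGTATATAgttgacaa
LINC00657 site at 1299: tcacatttTGTAAATAcctttttg
LINC00657 site at 3030: ccctactgTGTATATAgcggacaa
Genes whose transcript holds at least 1 match had a median log2 fold change of 0.09 against -0.10 for those without, with 8 enriched and 120 depleted among 3093, where 0.199% and 10.6% of all genes were. The match is a description of the letters and not of binding by any protein.

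Replication-dependent histone mRNAs were higher in PCAF fRIP as a list. These mRNAs are made in S phase, carry no introns and end in a conserved stem loop in place of a poly(A) tail. Of 53 tested, 2 were enriched and 0 depleted, where 0.199% and 10.6% of all genes were, and under the second centring 35 were enriched, where 9.78% of all genes were. At the adjusted p alone 47 were higher and 2 lower, where 26.3% of all genes were higher, and 36 had every PCAF library above every input library, where 15.8% of all genes did. Their median log2 fold change was 0.58 against -0.06 over all genes. HIST1H1E (chr6:26156557-26157343, plus strand), a linker histone, was at 1258, 1260 and 1028 FPKM against 527, 556 and 571 FPKM (log2 fold change 1.09 ± 0.13, adjusted p = 0.00063). HIST1H2AH was at 524, 553 and 606 FPKM against 229, 291 and 286 FPKM (1.06 ± 0.093). Summed over the 53 genes, the level was 16563, 15709 and 13766 FPKM in PCAF fRIP, or 2.58% to 3.37% of all FPKM, and 8933 to 9915 FPKM in input set 2, or 1.45% to 1.74%. The input sets differed here, since set 1 summed to 3702 to 4135 FPKM and set 3 to 11264 to 12051 FPKM. All 9 inputs lay below the lowest PCAF library, and 11 histone genes were enriched against all 9, where 0.79% of all genes were enriched. Histone genes are near-identical in sequence, so fragments may have been split among them, and single genes are less certain than the sum.

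Histone mRNAs were also higher than in the other fRIPs near input set 2. Of the 53, 28 were higher in PCAF fRIP and 0 lower (median log2 difference 1.08), where 0.43% of all genes were higher. HIST1H4C was at 485, 338 and 293 FPKM in PCAF fRIP, against 64.2 to 192 FPKM (median 96.3) in the 12 other libraries (log2 difference 1.82 ± 0.15, adjusted p = 3.19e-07). HIST1H2AD was at 199, 155 and 132 FPKM against 23.5 to 116 FPKM (1.65 ± 0.20). HIST2H2BF, HIST1H4B, HIST1H1E, HIST2H2AB and HIST1H4J also had all PCAF libraries above all 12 others (log2 differences 1.40 to 1.52). Against input set 2 these genes, apart from HIST1H1E, had log2 fold changes of 0.59 to 0.91 and were not called. The list medians against input set 2 were 0.58 for PCAF, 0.25 for CHD1, -0.71 for NUP98, -0.78 for RBBP5 and -0.68 for WDR5. CBP, the other acetyltransferase of the panel, summed to 9096 to 11191 FPKM over the 53 genes, below PCAF fRIP.

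The stem loop at the 3′ end of these mRNAs is bound by the stem-loop binding protein, whose own mRNA (SLBP) was also enriched. The letters GGC, any base, CTTTT, any base, AG, any base and GCC were searched in this order without gaps on the transcript strand. The search was made after the values were seen and covered genes with a transcript in the reference. Histone genes without one, HIST1H2AH among them, were not searched. The letters were found in 29 of the 30 histone genes covered (96.7%) and in 31 of 14968 genes tested (0.207%). The other 2 genes were H2AFX, which encodes a histone variant and has both kinds of transcript end, and NOP58. The last 26 bases of 3 histone transcripts are given with the stem loop in capitals to show how alike the element is in a linker histone, a core histone H4 and a core histone H2A.
HIST1H1E: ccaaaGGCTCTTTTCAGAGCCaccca
HIST1H4C: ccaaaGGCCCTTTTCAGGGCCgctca
HIST1H2AD: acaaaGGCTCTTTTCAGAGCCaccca
H2AFX, with the same letters, had a log2 fold change of 0.55 and a difference of 0.24 from the other fRIPs. The histone gene with the lowest value among the 29, HIST1H1T, a testis linker histone, had a log2 fold change of -0.50, which turned to 0.02 under the second centring, and carries the stem loop too.

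Other mRNAs of the S phase and of mitosis were also higher. Of 30 tested cell cycle mRNAs, 1 was enriched, 0 depleted and 27 higher at the adjusted p alone (median 0.54), where 26.3% of all genes were higher. Under the second centring 16 were enriched (median 1.06), where 9.78% of all genes were. PCNA, the sliding clamp of DNA polymerase, was at 189, 258 and 255 FPKM against 92.9, 113 and 141 FPKM (log2 fold change 1.02 ± 0.083, adjusted p = 0.000218). MCM4 and MCM6, subunits of the replicative helicase and picked after their values were seen, had log2 fold changes of 0.95 and 0.93 against input and were higher than in the other fRIPs near input set 2 (1.08 and 1.04). SLBP was at 147, 160 and 245 FPKM against 69.5, 77.6 and 115 FPKM (1.06 ± 0.062). TOP1 (chr20:39657462-39753127, plus strand), the topoisomerase that relaxes DNA ahead of polymerases, was at 21.3, 25.2 and 21.4 FPKM against 9.26, 11.5 and 10.2 FPKM (1.06 ± 0.067). TOP1 was above all 12 libraries of the other proteins, which ran from 6.35 to 10.9 FPKM (log2 difference 1.35 ± 0.074, adjusted p = 1.81e-08).

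The remaining enriched genes named by the rule had mixed roles. BCOR, a corepressor that joins the noncanonical Polycomb complex, was at 103, 102 and 123 FPKM against 41.8, 44.98 and 50.5 FPKM (log2 fold change 1.24 ± 0.061, adjusted p = 6.81e-05). LTV1, an export and assembly factor of the small ribosomal subunit, was at 86.5, 130 and 160 FPKM against 39.99, 53.4 and 80.96 FPKM. PPP1R26 was at 31.3, 27.5 and 36.96 FPKM against 13.7, 13.3 and 16.4 FPKM. EIF4G1, the scaffold of cap-dependent translation initiation, was at 217, 305 and 381 FPKM against 98.6, 140 and 199 FPKM, and MRPL39, a mitochondrial ribosomal protein, at 80.7, 112 and 114 FPKM against 40.9, 48.9 and 58.5 FPKM. In all 5 genes every PCAF library lay above every input library. Of these genes, MRPL39 was also higher than in all 12 libraries of the other proteins (1.12 ± 0.064).

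Proteasome mRNAs were higher at the adjusted p but not past the fold threshold. Of 38 tested subunits, 0 were enriched or depleted and 33 were higher and 1 lower at the adjusted p alone, where 26.3% of all genes were higher. The median was 0.58, and under the second centring it was 1.10 with 24 enriched, where 9.78% of all genes were enriched. PSMB1, a core subunit with the highest input level of the list, was at 554, 698 and 699 FPKM against 352, 386 and 443 FPKM (log2 fold change 0.72 ± 0.097, adjusted p = 0.00104). The list median was 0.74 against the other fRIPs near input set 2, whose own medians against input ran from -0.46 (WDR5) to 0.22 (CHD1). Nuclear-encoded mRNAs of mitochondrial proteins were not depleted as the mitochondrially encoded RNAs were. Of 88 tested respiratory chain mRNAs, 0 were called (median 0.17), and of 77 mitochondrial ribosomal protein mRNAs 1 was enriched, MRPL39, and 0 depleted (median 0.33). Under the second centring 18 and 22 were enriched, where 9.78% of all genes were. ATP5B, a subunit of ATP synthase, was at 1305, 1544 and 1467 FPKM against 796, 823 and 963 FPKM (0.74 ± 0.13).

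Cytosolic ribosomal protein mRNAs were lower than input. They are short, abundant and translated under control of a pyrimidine tract at their 5′ end. Of 82 tested, 15 were depleted and 0 enriched (median -0.66), where 10.6% of all genes were depleted. At the adjusted p alone 65 were lower and 1 higher, where 35.1% of all genes were lower, and 59 had every PCAF library below every input library, where 27.5% of all genes did. Under the second centring the median was -0.13 and 2 were depleted. Their summed level was 32631, 33367 and 41328 FPKM in PCAF fRIP and 57555, 51609 and 61146 FPKM in input set 2. RPLP1, a stalk protein of the large subunit, was at 192, 171 and 220 FPKM against 853, 742 and 846 FPKM (log2 fold change -2.06 ± 0.090, adjusted p = 4.95e-05). RPL39 was at 129, 126 and 206 FPKM against 516, 443 and 491 FPKM, and RPS12 at 410.1, 374 and 588 FPKM against 1278, 1163 and 1282 FPKM. This depletion was shared, since the list medians against input set 2 were -0.57 for CHD1, -0.58 for NUP98, -0.97 for RBBP5 and -0.91 for WDR5, and against the mean of these fRIPs the median for PCAF was 0.12 with 0 called. Many ribosomal protein genes have processed pseudogenes with near-identical sequence, to which fragments may have been assigned. In contrast, of 60 tested translation factors 1 was enriched and 1 depleted (median 0.20), the latter being the pseudogene EIF3FP1 at 0.785, 1.34 and 0.729 FPKM against 11.2, 8.90 and 10.2 FPKM.

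Of 20 tested mRNAs for proteins of translocation, folding and export at the endoplasmic reticulum (ER), 3 were depleted and 0 enriched (median -0.79), where 10.6% of all genes were depleted. At the adjusted p alone 17 were lower, where 35.1% of all genes were, and under the second centring 0 were depleted. SSR4, a subunit of the translocon-associated complex, was at 60.7, 63.7 and 86.0 FPKM against 143, 139 and 212 FPKM (log2 fold change -1.21 ± 0.066). The chaperone CANX was at 227, 217 and 178 FPKM against 458, 421 and 419 FPKM (-1.07 ± 0.089), and HSPA5 at 50.9, 42.2 and 22.7 FPKM against 99.9, 83.9 and 51.9 FPKM (-1.03 ± 0.066). TFRC, the transferrin receptor of erythroid cells, was at 136, 153 and 122 FPKM against 300, 335 and 259 FPKM (-1.11 ± 0.068, adjusted p = 0.000109). It was the single depleted gene among 26 tested erythroid and globin genes (median 0.12) and among 8 markers of K562 cells (median 0.07). TFRC was at -0.59 under the second centring and at -0.87 against the other fRIPs near input set 2, and passed the fold threshold in neither. GATA1, a transcription factor of erythroid cells, had a log2 fold change of 0.67 ± 0.081. The ER list had medians between -0.67 and -0.18 in the 4 other proteins, and against their mean PCAF had 0 members called (median -0.32).

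The remaining gene lists had few calls on the deposited scale, where 0.199% of all genes were enriched and 10.6% depleted. Of 386 tested C2H2 zinc finger genes named ZNF, 8 were depleted and 0 enriched (median -0.02, turning to 0.50 under the second centring), led by ZNF493 at 6.98, 5.59 and 4.48 FPKM against 22.8, 19.1 and 12.1 FPKM, ZNF789 at 7.79, 8.74 and 7.01 FPKM against 23.3, 23.5 and 19.1 FPKM, and ZNF506 at 0.275, 0.326 and 0.305 FPKM against 2.48, 1.89 and 2.20 FPKM. Of 69 heat shock and chaperone genes, 2 were depleted, HSPA5 and HSPG2, of which the latter encodes perlecan and belongs to the list by its name alone (median 0.26). No gene was called among 61 centrosomal and kinesin genes (median 0.19, PCM1 at 0.34), 14 golgins and tethers (0.19, USO1 at 0.30), 25 nucleoporins (0.31, NUP214 at 0.18), 22 hnRNPs (0.32, HNRNPA2B1 at 0.63), 20 SR proteins and CLK kinases (0.06, SRSF1 at 0.02), 23 immediate early genes (0.27, MCL1 at 0.41) or 24 genes of cholesterol synthesis (-0.12, or 0.40 under the second centring, EBP at -0.77), where the gene in each pair of brackets has the highest input level of its list and the values are log2 fold changes. Under the second centring, where 9.78% of all genes were enriched, 11 centrosomal and kinesin genes, 1 golgin or tether, 8 nucleoporins, 5 hnRNPs, 1 SR protein or CLK kinase, 3 immediate early genes, 2 genes of cholesterol synthesis, 21 ZNF genes and 19 heat shock and chaperone genes were enriched. At the adjusted p alone, 18 nucleoporins were higher and 2 lower, 14 and 4 hnRNPs, 13 and 1 immediate early genes and 35 and 16 heat shock and chaperone genes, where 26.3% of all genes were higher and 35.1% lower.

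**Figure D3:**
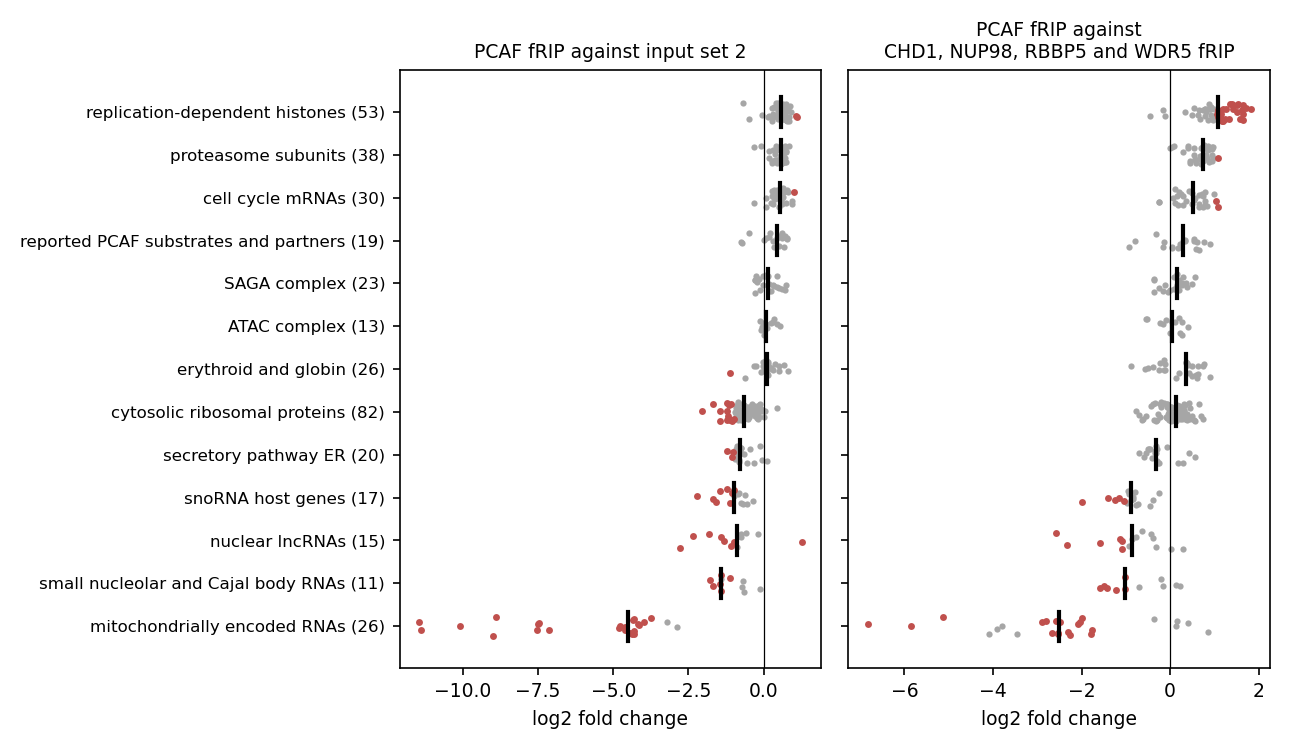
Log2 fold changes of single genes in 13 of the lists, for PCAF fRIP against input set 2 (left) and against the mean of CHD1, NUP98, RBBP5 and WDR5 fRIP (right), with the number tested in brackets. Red points are genes called, grey points are not called and black bars are list medians, and the histone bar lies at 0.58 on the left and 1.08 on the right while the ribosomal protein bar moves from -0.66 to 0.12.

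Isoforms with retained introns were depleted more often than coding isoforms, also among genes that had both. Of 46506 isoforms tested, 1832 (3.94%) were enriched and 6585 (14.2%) depleted, and with libraries centred on the median isoform these were 3428 and 4158. Among 8093 annotated as retained intron, 2652 (32.8%) were depleted and 156 enriched, with a median log2 ratio of -0.73 ± 0.13 (SD, n = 3 library pairs). Among 22845 coding isoforms, 1163 (5.09%) were depleted and 1071 enriched (median 0.12 ± 0.019), and among 3258 isoforms annotated for nonsense-mediated decay 183 were depleted and 205 enriched (median 0.03 ± 0.016). Both kinds of isoform were tested in 3676 genes, where 2559 of 7733 retained-intron isoforms and 648 of 10712 coding isoforms were depleted. In 1383 of these genes only retained-intron isoforms were depleted, in 206 only coding ones and in 313 both. The values of single isoforms are estimates that split the fragments of a gene, so isoforms of 1 gene are not independent of each other.

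Of the 12 genes with the highest retained-intron level in input, 6 had the retained-intron isoform below the coding one. The next values are for genes picked as the highest retained-intron isoforms among those depleted, so their direction was fixed by that choice. The retained-intron isoform of DDX5, an RNA helicase, was at 24.3, 31.6 and 18.9 FPKM in PCAF fRIP against 101, 121 and 66.3 FPKM in input (log2 fold change -1.89 ± 0.077, adjusted p = 0.00466), while its coding isoform was at 41.5, 46.7 and 70.2 FPKM against 23.9, 30.6 and 50.5 FPKM (0.61 ± 0.083). The retained-intron isoform of HNRNPH1, a splicing regulator, was at 9.30, 9.51 and 18.3 FPKM against 36.8, 43.6 and 43.4 FPKM, and its coding isoform at 50.0, 77.8 and 78.7 FPKM against 26.4, 35.0 and 52.2 FPKM. In both genes the groups did not overlap for the retained-intron isoform and overlapped for the coding one, which was the higher in PCAF fRIP in each of the 3 pairs. OGT, which adds N-acetylglucosamine to proteins, had its retained-intron isoform at 16.5, 10.2 and 6.23 FPKM against 81.4, 57.6 and 25.2 FPKM and its coding isoform at 32.1, 37.7 and 37.1 FPKM against 61.7, 59.7 and 39.0 FPKM. In OGT, ZNF595, RPL13 and RPL23A the log2 fold change of both isoforms was below 0, with the retained-intron isoform lower in each.

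The difference was present in every PCAF library and in most genes. Log2 ratios to the mean of input set 2 were averaged in each of the 3676 genes, over retained-intron isoforms and over coding isoforms. The median difference of the averages was -0.84, -0.88 and -0.65 in PCAF fRIP 1 to 3. The retained-intron average was the lower one in 85.6%, 85.9% and 79.1% of genes. When the isoforms were chosen by input sets 1 and 3, which the ratios did not use, the mean over 4220 genes was -0.71 ± 0.11 (SD, n = 3). In 888 genes the retained-intron and the coding isoform of highest level in input set 2 both had at least 5 FPKM there. Of these genes, 687 (77.4%) had the retained-intron isoform lower, with medians of -0.64 and 0.32. In bins of the level in input sets 1 and 3, the median for retained-intron isoforms was between -0.96 ± 0.19 and -0.56 ± 0.099 from 1 to 20 FPKM, and -0.23 ± 0.081 and -0.29 ± 0.17 in the bins above it, which hold 150 and 45 isoforms.

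The other proteins near input set 2 differed widely in the same measure. It was -0.79 ± 0.12 in PCAF fRIP, -0.51 ± 0.10 in NUP98 fRIP, -0.50 ± 0.12 in WDR5 fRIP, 0.13 ± 0.068 in CHD1 fRIP and 0.64 ± 0.083 in RBBP5 fRIP (SD, n = 3 each). With a pseudocount of 0.1 it was -1.29 in PCAF fRIP, -0.81 in NUP98 fRIP and -0.82 in WDR5 fRIP. All 3 PCAF libraries lay below all 12 others, which is given with no test. The libraries of 1 protein are not independent of each other, and the ratios of all 5 proteins share the input libraries. The comparison was added after the values were seen.

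**Figure D4:**
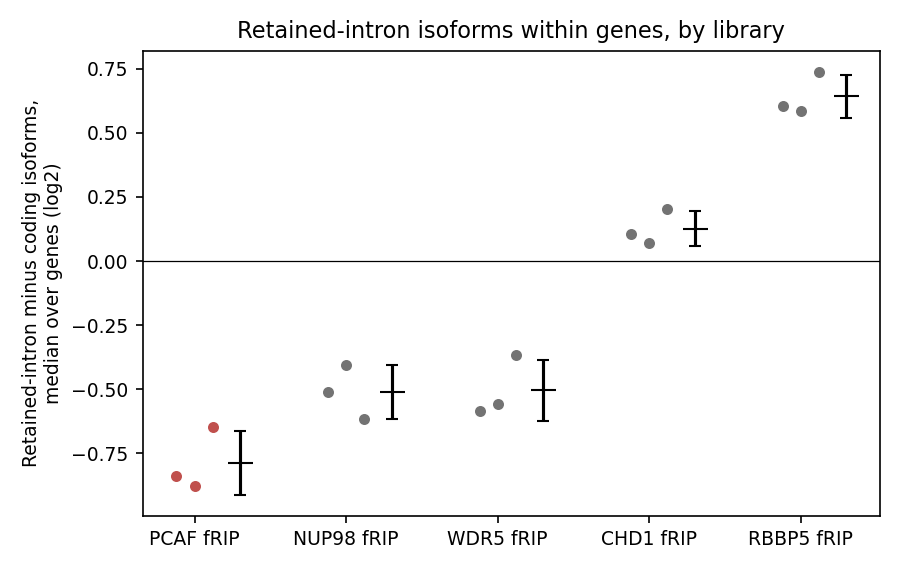
Median over 3676 genes of the mean log2 ratio of retained-intron isoforms minus that of coding isoforms of the same gene (vertical axis), by protein. Ratios are taken against the mean log2 level of input set 2. Points are libraries and bars the mean and SD of 3, and the PCAF libraries, at -0.88 to -0.65, are the lowest.

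A cluster of depleted genes next to the globin genes was singled out after the values were seen. K562 cells transcribe the fetal and embryonic globin genes at chromosome 11p15, which is flanked by olfactory receptor genes that have no known use in blood cells. Of 24 tested genes within 400 kb of HBE1, 14 were depleted and 0 enriched (median log2 fold change -1.57). The 4 globin genes were not called, with log2 fold changes of 0.05 to 0.23. HBE1 was at 546, 698 and 332 FPKM against 539, 624 and 337 FPKM, and HBG1 at 339, 433 and 277 FPKM against 298, 336 and 262 FPKM. Of 13 olfactory receptor genes and pseudogenes, 11 were depleted (median -2.27, range -2.81 to -0.77), where 10.6% of all genes were. OR51I2 (chr11:5470553-5477748, plus strand) was at 1.61, 2.14 and 5.26 FPKM in PCAF fRIP against 15.9, 22.8 and 43.4 FPKM in input (log2 fold change -2.81 ± 0.083). OR52D1 (chr11:5509915-5510979, plus strand) was at 2.21, 3.57 and 12.1 FPKM against 20.6, 29.8 and 64.7 FPKM (-2.61 ± 0.10). Replicate 3 was highest in both groups for both genes, and every PCAF library lay below every input library. OR51B4, the receptor gene with the highest level in PCAF fRIP, was at 19.6, 20.3 and 30.8 FPKM against 40.5, 36.9 and 43.1 FPKM (-0.77 ± 0.10) and missed the fold threshold.

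All 13 receptor genes and pseudogenes stayed below 0 under the second centring. OR51B3P, 1 of the 11 depleted, moved to -0.86 and so inside the fold threshold. Against the other fRIPs near input set 2, 10 of the 13 were lower in PCAF fRIP (log2 differences -2.11 to -1.04). The mean level of OR51I2 was 3.00 FPKM in PCAF fRIP, 6.31 in WDR5 fRIP, 7.96 in NUP98 fRIP, 19.9 in CHD1 fRIP and 65.3 in RBBP5 fRIP. For some of the 13, OR51A10P among them, the mean was lower in WDR5 fRIP than in PCAF fRIP. On the annotation, transcripts of HBG2, HBE1 and AC104389.28 on the minus strand extend over these genes, so reads of long globin-locus transcripts and of the receptor genes may not be separate. AC104389.28 was at 53.6, 57.9 and 47.2 FPKM against 115, 115 and 87.7 FPKM. Beyond the receptor genes, TRIM6 and TRIM5, which encode ubiquitin ligases, had log2 fold changes of 0.41 and 0.15 and were not called.

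**Figure D5:**
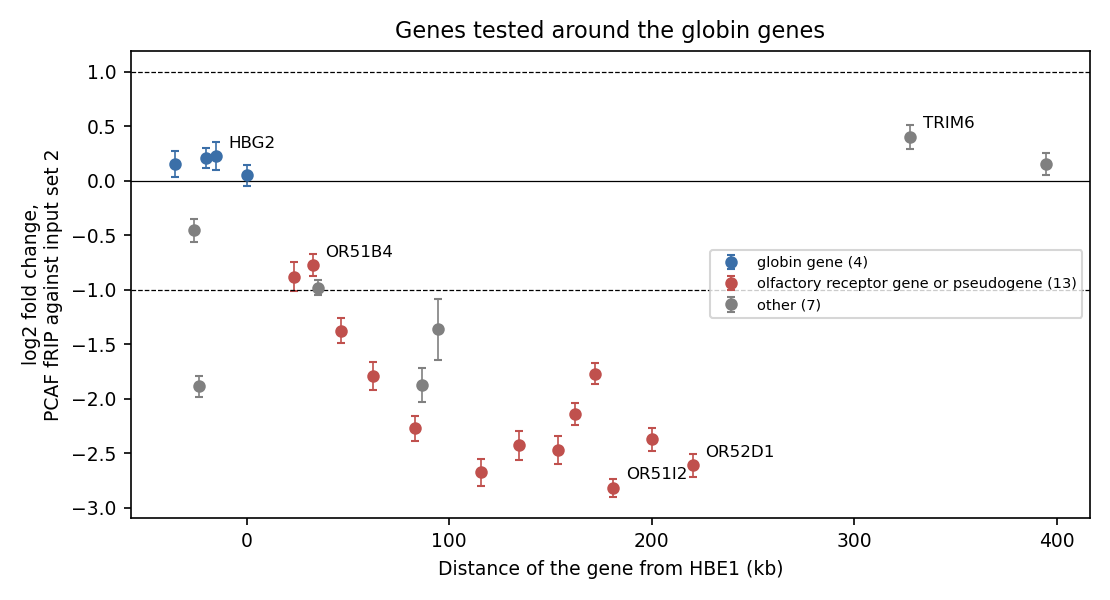
Log2 fold change of PCAF fRIP against input set 2 (vertical axis) for the 24 tested genes within 400 kb of HBE1, by the distance of the gene's start from that of HBE1 in kb (horizontal axis). Bars are standard errors of the fit, and the olfactory receptor genes and pseudogenes lie between -2.81 and -0.77, below the 4 globin genes at 0.05 to 0.23.

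Gene structure followed the fold change only weakly. Over 10948 mRNAs, Spearman's rho between the log2 ratio and the number of exons was 0.18 ± 0.045 (SD, n = 3 library pairs), and that with transcript length was 0.10 ± 0.010. Genes are not independent of each other, and these values are a description with no test across genes. The median log2 ratio rose from -0.05 ± 0.048 in 2560 mRNAs with 2 to 4 exons to 0.25 ± 0.032 in 471 mRNAs with more than 20 exons. In 253 mRNAs with 1 exon it was 0.08 ± 0.038. For GC content rho was -0.04 ± 0.045, and for the level in input sets 1 and 3 it was 0.17 ± 0.038. Of 7 such features compared with the 12 libraries of the other proteins, the level in input separated PCAF fRIP, with mean rho of 0.16 against -0.12 (two-sided exact permutation p = 0.0044, adjusted p = 0.0308). The 12 libraries come from 4 proteins and share the input libraries, so they are not independent, and in mRNAs with a mean of at least 5 FPKM the rho of PCAF fRIP with input level was 0.053. For the number of exons the means were 0.17 and 0.03 (p = 0.123, adjusted p = 0.215 over the 7 features, exact permutation test).

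Compared with single proteins, PCAF fRIP was closest in calls to NUP98 fRIP. Against NUP98 fRIP 119 genes (0.648%) were higher in PCAF fRIP and 160 (0.872%) lower, and against CHD1 fRIP 59 (0.321%) and 1638 (8.92%). Against WDR5 fRIP, a protein that also occurs in the ATAC complex, 501 genes (2.73%) were higher and 745 (4.06%) lower, and against RBBP5 fRIP 579 (3.15%) and 3591 (19.6%). CBP, the other acetyltransferase studied, had its nearest input in another set, and its libraries differed from PCAF fRIP in 591 genes higher (3.92%) and 3396 lower (22.5%) of 15085, or in 1632 higher and 2329 lower with libraries centred. Against CBP the median log2 difference was 0.54 for histone mRNAs, -2.38 for mitochondrially encoded RNAs, -0.98 for snoRNA host genes, -1.08 for ER mRNAs, 0.27 for ribosomal protein mRNAs and -0.54 for lncRNAs. The directions for histone mRNAs, mitochondrially encoded RNAs, snoRNA hosts and lncRNAs were those found against input set 2, and the direction for ribosomal protein mRNAs was the opposite.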

How the data were processed

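RNA from PCAF fRIP and from input was sequenced in K562 cells after 0.1% formaldehyde for 10 minutes and sonication for 90 seconds. The authors aligned reads to hg19 with TopHat and deposited FPKM per gene and per isoform for each of 79 libraries, made with Cuffnorm and Cuffdiff on GENCODE models (per the labels and processing notes, which also name CASAVA 1.4). Columns of the authors' own comparisons (fold changes and p-values) were not used, except their mean input level, which served to find the nearest input set. FPKM carry no counts, so the depth was taken from the spacing of the values of low genes, of which 89% to 90% in the 6 libraries lay no more than 0.15 from a whole number of fragments. Whether counting used the strand is not given in the sources used here.

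Genes and isoforms that reached 1 FPKM in 3 or more of 6 libraries were fitted as log2(FPKM + 1) in limma 3.58.1 (R 4.3.3) with a variance trend, the replicate number as a block and Benjamini-Hochberg adjustment, and all adjusted p-values not called exact come from these fits. The pseudocount of 1 understates changes of low genes. The block was kept because deviations from the group means of same-numbered PCAF and input libraries correlated at 0.632, 0.319 and 0.748. Differently numbered libraries correlated at -0.654 to 0.300. The highest of these, PCAF fRIP 1 with input replicate 2, lay close to the 0.319 of replicate 2. With 3 libraries against 3, an exact permutation test of a single value cannot go below 0.1, so none was run between them. The other proteins were fitted together with PCAF and input set 2 over 18 libraries. Simulated data with 200 changed genes among 15568 gave calls for 1.5% of genes changed by 0.75 on the log2 scale (40% passed the adjusted p), for 83% of genes changed by 1.5 and for 99% of those changed by 3.

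The text names the 12 largest changes in each direction with a mean of at least 5 FPKM, up to 5 lncRNAs a direction, up to 3 called members of each of 33 gene lists (else the member of highest input level) and the 8 largest differences a direction from the other fRIPs. Some named items are not reported here. The comparison, lists and rules were chosen with earlier results of these data known. GENCODE release 44 lifted to hg19 gave classes, loci and sequences. Its loci overlapped those of 46049 of 46055 matched genes. Python 3.11.15, pandas 2.3.3, numpy 2.4.6, scipy 1.17.1 and matplotlib 3.10.9 were used. Alternatives covered scaling, pseudocount, filter, input set, block and left-out replicates.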

Additional observations from a re-analysis of the deposited data

Results flagged for a closer look

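In 12 of the 89 genes named by the rule, 1 of the 9 input libraries stood apart from the other 8, with a gap to its neighbour divided by the range of the 9, both taken on log2(FPKM + 1), that passed Dixon's 95% limit. Chance alone passes this limit in about 5% of groups. In set 2, which the comparison used, replicate 3 was low for KAT2B (9.09 FPKM against 12.9 to 17.5, ratio 0.530) and high for EIF4G1 (199 against 98.6 to 140, ratio 0.503) and SRSF1 (342 against 164 to 219, ratio 0.610).

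In set 1, replicate 1 was low for RP11-286N22.8 (1.12 FPKM against 4.25 to 11.9, ratio 0.501) and high for PPP1R26 (23.4 against 12.499 to 16.4, ratio 0.566). In set 3, replicate 2 was listed at 0 for MT-TR (others 1220 to 4269 FPKM, ratio 0.850), MT-TI (386 to 2593, ratio 0.758) and MT-TH (494 to 1729, ratio 0.832). Replicate 3 of set 3 was listed at 0 for MT-TL1 (372 to 2291, ratio 0.765) and RNU4ATAC (12.03 to 53.6, ratio 0.642), and was low for MT-TG (3021 against 7272 to 14526, ratio 0.559) and SNORA71A (24.8 against 128 to 231, ratio 0.734). These 5 mitochondrial tRNAs and 2 small RNAs are short, and the libraries concerned did not enter the comparison with set 2.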

How the results depend on the processing

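The number of enriched genes, 31, depended on the setting, and that of depleted genes, 1657, less so. Enriched genes numbered 53 with libraries centred on the genes tested, 107 with FPKM scaled to 1 total, 123 against 9 inputs, 839 and 139 against input sets 1 and 3 alone, 65 with a pseudocount of 0.1, 16 with a mean of at least 5 FPKM and 41 to 47 without 1 replicate (47 without replicate 3). Settings added after the data were seen gave 1523 (centred on genes at 1 FPKM in 2 of 79 libraries), 1557 (with that filter too) and 285 (9 inputs, centred). Depleted genes numbered 2624 against input set 1, 310 with a mean of at least 5 FPKM, and 619 and 625 under the first 2 added settings, with 1605 to 1775 without 1 replicate.

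Centring gave 3428 enriched and 4158 depleted isoforms, 387 higher and 336 lower genes against the other fRIPs near input set 2, and 1632 higher genes against CBP fRIP. A pseudocount of 0.1 gave 129 and 2422 genes against the other fRIPs and moved the retained-intron difference to -1.29 in PCAF fRIP. Spearman's correlation with the fold change was 0.053 for input level and 0.087 for length in mRNAs with a mean of at least 5 FPKM, and 0.084 for length of the isoform highest in input. Without the replicate block 30 genes were enriched and 1623 depleted, and at the adjusted p alone 1099 were higher and 3111 lower.

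Directions turned for KAT2B (0.054 at 1 total, 0.41 under both centrings on genes at 1 FPKM in 2 of 79 libraries), NUP214 (-0.033) and LINC00273 (0.056) against input set 1, HIST1H4J (-0.46) against input set 3, SRSF1 (-0.033 to 0.056 without 1 replicate) and DR1 (-0.077 to 0.079). With centring on mRNAs DR1 was at -0.013 and SRSF1 at -0.0109. The cause was not tested. The other genes reported here under the naming rule kept their direction under each of the 21 alternatives in which they were tested, which for 6 genes left out the filter on a mean of at least 5 FPKM.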
